A study of Rattus norvegicus with 17 samples.

Results

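The genes of the rat major histocompatibility complex (MHC), named RT1, were followed in CD4+ T helper cells of rats on 3 vitamin D diets. Members were the genes whose symbol starts with RT1- and that had a row of the expression table annotated to exactly 1 symbol; 37 such rows gave 35 genes, each represented by its row with the highest mean over all arrays, of 14506 genes in all. By symbol, 9 were class II genes (the RT1-B, RT1-D and RT1-H loci), 26 were class Ib genes (10 CE loci, 8 M loci and 8 T, N, S and O loci) and 0 were classical class I genes, because RT1-A1, RT1-A2 and RT1-A3 shared a single row and did not qualify. The cells came from female Dark Agouti rats, an inbred strain prone to EAE (experimental autoimmune encephalomyelitis), which models multiple sclerosis and was induced here with myelin oligodendrocyte glycoprotein (MOG). All rats of all 3 diets were immunized. A cell sorter isolated the CD4+ cells from inguinal nodes taken 7 days after immunization, and 250 ng of RNA per sample was put on 1 Affymetrix rat gene array. The deprived diet held 0 IU of vitamin D (5 arrays, replicates 2 to 6), the regular diet 2 IU (6 arrays) and the supplemented diet 10 IU (6 arrays), from 5 weeks before immunization to the end. The labels call the arrays of a diet biological replicates of age-matched rats and give neither the age nor the amount of feed that the IU refer to.

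MHC class I molecules are held by nearly all nucleated cells and show peptides from the cell's own proteins to CD8+ T cells, in a complex with beta-2-microglobulin. Class Ib molecules resemble them but vary less between individuals, and several are seen by natural killer cells or unconventional T cells. Class II molecules are made by B cells, dendritic cells and macrophages under control of the transactivator Ciita and show peptides to CD4+ T cells; activated rat T cells can carry class II as well.

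The values are log2 expression values, and a difference of 1 between diets is a doubling. Differences were tested with limma across the 10879 genes whose mean was at least 5.321, and a gene was called where its p, adjusted with Benjamini-Hochberg over those genes, was under 0.05. Of the RT1 genes 32 passed this level filter, 24 of class Ib and 8 of class II, and RT1-M10-1, RT1-M1-4 and RT1-Db1 lay below it with means of 5.14, 4.71 and 5.22. The 10 T cell markers had array means of 10.09 to 10.6, with Cd4 at a mean of 9.95 and Cd3e at 10.59, the markers of the sorted cell type. The supplemented arrays stood apart: the standard deviation of all log2 values of an array, called its spread, was 1.908 to 1.972 on them, below the 2.001 to 2.063 of the regular and the 2.027 to 2.073 of the deprived arrays. Since the spreads of the supplemented arrays did not overlap with the others, spread and supplementation cannot be told apart in these data.

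Between the supplemented and the regular diet 10 class Ib genes of the CE, S, T and N loci fell, while the class Ib genes RT1-M6-1 and RT1-T18 and the class II genes RT1-Bb, RT1-DOa and RT1-Ha rose. Direction went with expression level, as described at the end, and a difference between the classes was not tested. In bulk RNA of sorted cells, fewer cells of a type and less RNA per cell cannot be told apart. Of the 32 tested genes 15 changed, 5 higher and 10 lower; among all genes tested 33.7% changed, 10.8% higher and 22.9% lower. The class Ib genes had 2 members higher, 10 lower and 12 that did not pass, with a median difference of -0.13. The class II genes had 3 higher, 0 lower and 5 that did not pass, with a median of 0.17 and a positive difference in 8 of 8, of which RT1-DMa turned to -0.04 when arrays were centred and RT1-DMb to just below 0 after cyclic loess; with centred arrays the class II median was 0.09. RT1-Ha, among the 3 class II genes that rose, passed the level filter only through its supplemented arrays. Over all genes tested the median was 0.00061. When arrays were centred on their medians the split was 2 higher and 12 lower, and after cyclic loess 2 higher and 7 lower. With the array spread as a covariate in limma, 0 RT1 genes passed, 5 having an unadjusted p under 0.05, and 0 of all genes passed, 1192 having such a p.

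**Figure D1:**
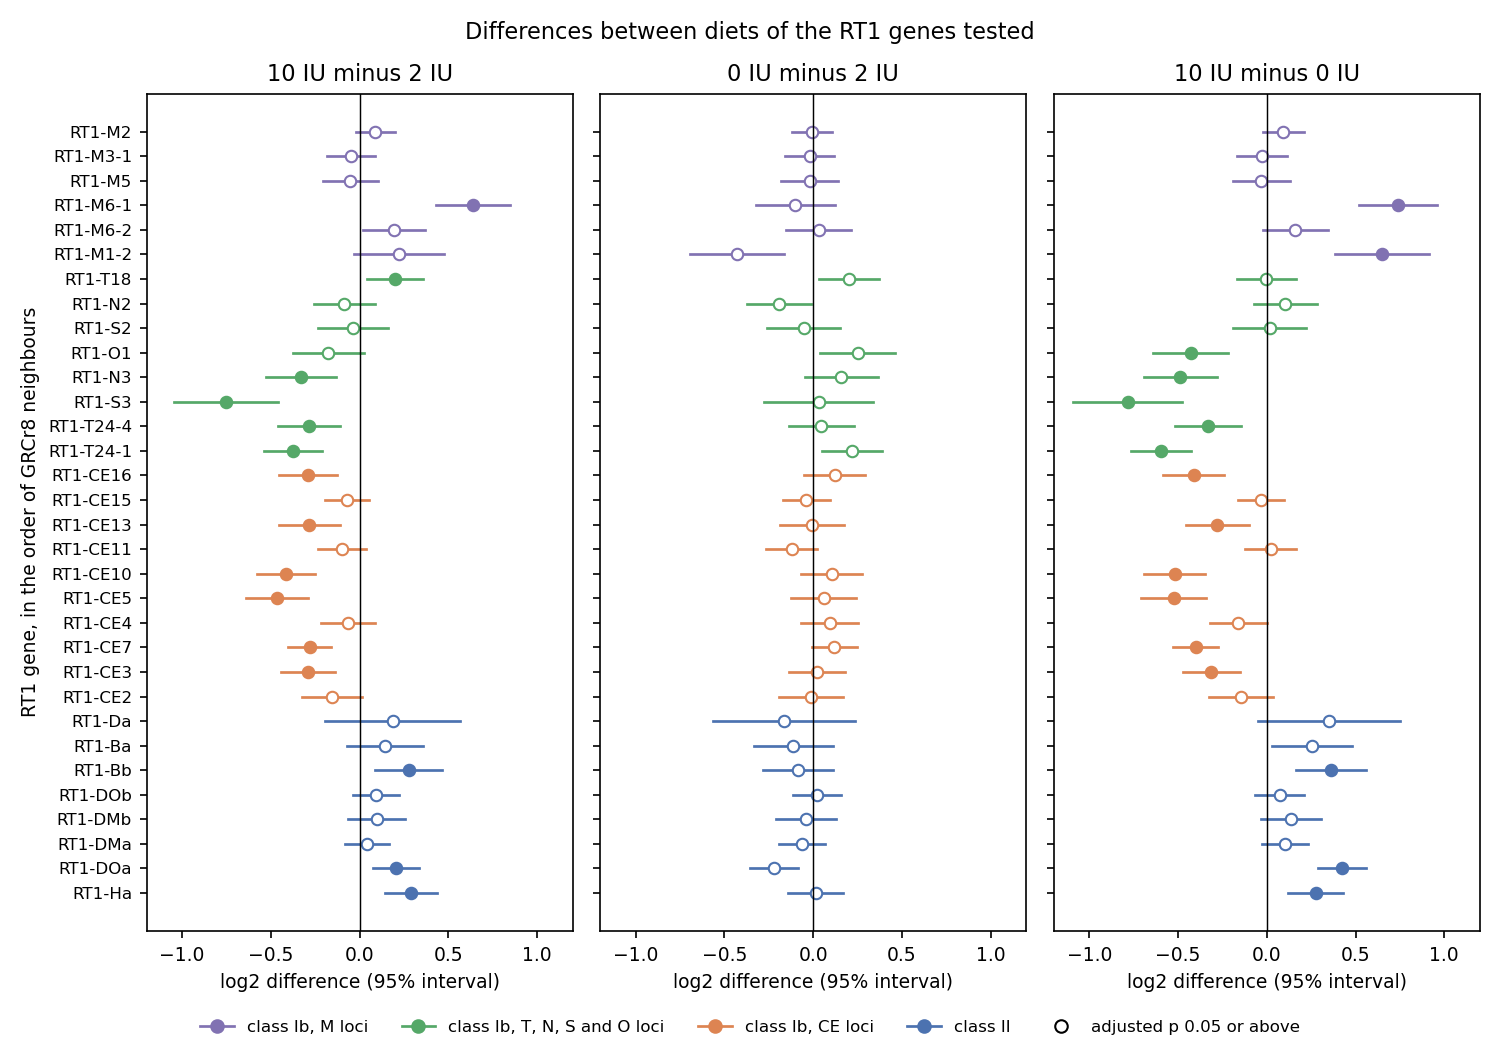
Differences in mean log2 value (points) with 95% intervals (lines) of the 32 RT1 genes tested, in the order of their genes in the GRCr8 annotation, for 10 IU minus 2 IU, 0 IU minus 2 IU and 10 IU minus 0 IU; filled points passed the adjusted threshold. In the left panel 10 class Ib genes lie below 0 as filled points and all 8 class II genes lie above 0, and the middle panel has no filled point.

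Among the RT1 genes measured, the CE loci come just before the class II genes in the annotation of chromosome 20. All 10 had a lower mean on the supplemented than on the regular arrays, 6 fell and 4 did not pass, with a median of -0.28; after quantile normalization RT1-CE4 and RT1-CE15 turned positive (0.10 and 0.01), and after cyclic loess RT1-CE4 did (0.09). Over all genes tested 22.9% fell. In the upper 2 of 4 bands of level, from 7.068 up, 28.6% and 52.6% fell, and all CE loci but RT1-CE2 lay there. The CE median was -0.16 after quantile normalization, -0.17 after cyclic loess and -0.10 with the spread covariate. RT1-CE5 had log2 values of 9.91, 9.95, 9.82, 9.84 and 9.72 on the deprived arrays, 9.63 to 10.01 (median 9.79) on the regular and 8.94 to 9.50 (median 9.39) on the supplemented arrays. Every supplemented array lay below every array of the other diets. The share of all genes tested that lacked such overlap was not counted, here or for the genes that follow. The difference from the regular diet was -0.46 (SE 0.084, n = 6 and 6, adjusted p = 0.000232), a level 0.725 times that of the regular diet. RT1-CE10 had 9.01, 9.06, 8.88, 9.02 and 8.86 on the deprived arrays, 8.75 to 9.03 (median 8.85) on the regular and 8.10 to 8.67 (median 8.50) on the supplemented arrays, again without overlap. It fell by 0.41 (SE 0.079, adjusted p = 0.00042). RT1-CE7 ran from 10.14 to 10.37 on the regular and from 9.79 to 10.02 on the supplemented arrays, without overlap, and fell by 0.28 (SE 0.059, adjusted p = 0.000961). RT1-CE16 (-0.29, SE 0.079), RT1-CE3 (-0.29, SE 0.073) and RT1-CE13 (-0.28, SE 0.082) also fell, with overlapping arrays. The 4 that did not pass were RT1-CE2 at -0.16 (95% interval -0.33 to 0.02), RT1-CE11 at -0.10 (-0.24 to 0.04), RT1-CE15 at -0.07 (-0.20 to 0.05) and RT1-CE4 at -0.07 (-0.22 to 0.09). RT1-CE7 and RT1-CE13 did not pass after quantile normalization (-0.11 and -0.11) or cyclic loess (-0.10 and -0.12), RT1-CE13 did not with the macrophage and monocyte marker mean as a covariate (-0.27), and RT1-CE16 and RT1-CE13 did not without supplemented replicates 2 and 5 (-0.20 and -0.20), the pair with the smallest spread.

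The CE genes are close copies of each other, and probes of one can take up transcripts of another, so that single CE loci are uncertain. A further row of RT1-CE7 did not pass (0.01, adjusted p = 0.947 among all rows) and disagreed with the row used. Rows shared by several CE symbols gave -0.25 for RT1-CE1 and RT1-CE12 (adjusted p = 0.00727), -0.28 for RT1-CE1, RT1-CE7 and RT1-CE12 (adjusted p = 0.00276) and -0.08 for RT1-CE13 and RT1-CE14 (adjusted p = 0.307). Promoters, the 250 bases before to 50 after a gene's start, were at hand from RefSeq (GRCr8) for 9 of the 10 CE loci. Over at least 200 aligned bases the 8 CE loci other than RT1-CE2 were 81.0% to 91.8% identical to each other in 28 pairs. RT1-CE2 was less alike: among the CE loci it reached that length with RT1-CE3 alone, at 68.0% identity. RT1-CE10 and RT1-CE5, which fell, and RT1-CE4, which did not pass, are shown by the 250 bases before the start to set the copies side by side. Capitals mark letters found on either strand: CCAAT (the Y box), GGGANTCCC (enhancer A) and a vitamin D receptor type repeat, GNTCA followed in the same direction by GNTCA after 4 bases.
RT1-CE10, chr20:3384980-3385229, minus strand: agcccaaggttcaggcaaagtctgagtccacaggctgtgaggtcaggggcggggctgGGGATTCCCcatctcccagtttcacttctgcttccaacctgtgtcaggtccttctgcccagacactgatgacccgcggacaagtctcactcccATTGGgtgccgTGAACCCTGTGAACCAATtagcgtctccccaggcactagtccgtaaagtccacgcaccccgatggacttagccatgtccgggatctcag
RT1-CE4, chr20:3509157-3509406, minus strand: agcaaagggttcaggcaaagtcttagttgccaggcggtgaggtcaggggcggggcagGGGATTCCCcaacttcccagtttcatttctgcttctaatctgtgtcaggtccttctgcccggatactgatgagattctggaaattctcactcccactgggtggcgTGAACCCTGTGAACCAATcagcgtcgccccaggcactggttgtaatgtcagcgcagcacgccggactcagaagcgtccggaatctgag
RT1-CE5, chr20:3484091-3484340, minus strand: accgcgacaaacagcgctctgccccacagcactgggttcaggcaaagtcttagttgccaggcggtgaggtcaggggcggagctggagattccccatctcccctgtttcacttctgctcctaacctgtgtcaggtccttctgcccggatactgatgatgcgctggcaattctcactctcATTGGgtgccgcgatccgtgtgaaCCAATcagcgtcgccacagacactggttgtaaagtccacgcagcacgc

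Enhancer A letters were in 5 of 31 RT1 promoters, all of CE loci (RT1-CE4, RT1-CE10, RT1-CE11, RT1-CE13 and RT1-CE16), and in 0.681% of all 33469 promoters of the same length. These letters read the same on both strands. The same 5 promoters held the vitamin D type repeat, which was in 0.816% of all promoters and which in RT1-CE4, RT1-CE10, RT1-CE11 and RT1-CE16 shares 1 base with the Y box. Of those 5 genes RT1-CE10, RT1-CE13 and RT1-CE16 fell, and RT1-CE4 and RT1-CE11 did not pass. RT1-CE3 and RT1-CE5 fell and held neither set of letters. Such matches describe the letters in these windows.

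The S, T, N and O loci come before the CE loci in the same order. Of 8 tested, 1 rose, 4 fell and 3 did not pass, with a median of -0.23, where 10.8% of all genes tested rose and 22.9% fell. RT1-S3, the counterpart of mouse H2-T23, whose product is a ligand of natural killer cell receptors, had the largest fall of the RT1 genes. Its log2 values were 8.81, 9.03, 8.85, 8.75 and 8.77 on the deprived arrays, 8.57 to 9.01 (median 8.87) on the regular and 7.71 to 8.69 (median 7.84) on the supplemented arrays. Supplemented replicates 1, 2, 4 and 5 lay between 7.71 and 7.87, while replicates 3 and 6, at 8.56 and 8.69, lay beside the lowest regular array. The mean fell by 0.75 from the regular diet (SE 0.14, adjusted p = 0.00035), to 0.594 times its level, and leaving out any 1 array gave -0.88 to -0.68. RT1-T24-1 had 8.57, 8.67, 8.59, 8.57 and 8.49 on the deprived, 8.28 to 8.62 (median 8.31) on the regular and 7.69 to 8.21 (median 7.999) on the supplemented arrays. The supplemented arrays lay below all others, and the difference was -0.38 (SE 0.078, adjusted p = 0.000889).

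RT1-N3 fell by 0.33 (SE 0.094, adjusted p = 0.0104), from 8.27 to 8.50 on the regular to 7.79 to 8.38 on the supplemented arrays, which overlap. RT1-T24-4 fell by 0.28 (SE 0.085, adjusted p = 0.0136) in the row used, and its other row gave -0.16 (adjusted p = 0.235 among all rows). Both lost their calls after quantile normalization (-0.23 and -0.13), after cyclic loess (-0.22 and -0.13), with the mean of the macrophage and monocyte markers as a covariate (-0.35 and -0.30) and when supplemented replicates 2 and 5 were left out (-0.26 and -0.24). RT1-T18 rose by 0.20 (SE 0.077, adjusted p = 0.0499), passed in 4 of the 17 fits that each left out an array, and did not pass after quantile normalization (0.11), centring (0.12) or cyclic loess (0.10), where the adjusted p ran up to 0.347. RT1-O1 (-0.18, 95% interval -0.38 to 0.03), RT1-N2 (-0.09, -0.26 to 0.08) and RT1-S2 (-0.04, -0.23 to 0.16) did not pass. RT1-N3, RT1-S3, RT1-T24-4 and RT1-T24-1, which fell, follow each other in the annotation among the RT1 genes measured. The promoter of RT1-S3 is shown because it held the letters TTCNNTTTC of an interferon response element. It was 1 of 3 RT1 promoters with them, beside RT1-N3 and RT1-S2, and 9.71% of all promoters held them. Only these exact letters were searched, so elements that differ from them, in the CE or other promoters, were not counted. Capitals mark these letters and the Y box.
RT1-S3, chr20:2675278-2675527, plus strand: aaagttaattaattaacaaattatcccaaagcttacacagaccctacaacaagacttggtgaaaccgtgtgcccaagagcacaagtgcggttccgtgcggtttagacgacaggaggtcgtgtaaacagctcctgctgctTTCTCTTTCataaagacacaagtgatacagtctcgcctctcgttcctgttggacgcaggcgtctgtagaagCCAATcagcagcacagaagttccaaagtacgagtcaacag

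**Figure D2:**
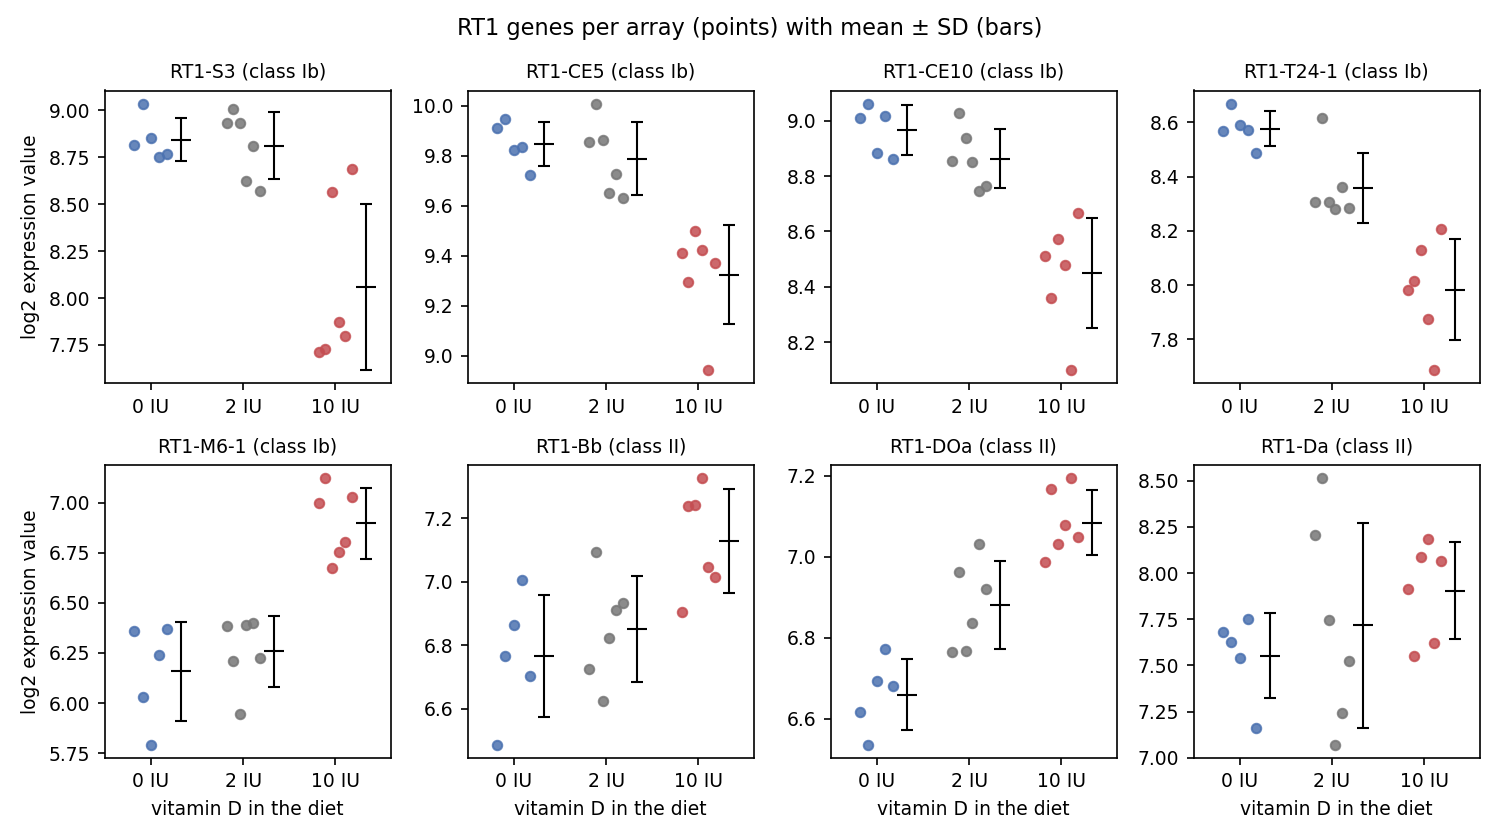
Log2 expression value of 8 RT1 genes on each array (points) with the mean ± SD of each diet (bars) for 0 IU (5 arrays), 2 IU (6 arrays) and 10 IU (6 arrays); each panel has its own axis, which does not start at 0. The 6 supplemented arrays of RT1-CE5, RT1-CE10 and RT1-T24-1 lie below all others, 2 of the 6 of RT1-S3 lie near the regular arrays, and those of RT1-M6-1 lie above all others.

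Supplemented replicates 3 and 6 held the highest values not only for RT1-S3. They were the top pair of the 6 supplemented arrays in 6 of the 10 RT1 genes that fell (RT1-S3, RT1-N3, RT1-T24-1, RT1-T24-4, RT1-CE10 and RT1-CE13), against 25.8% of all 2488 genes that fell. Among class I pathway genes that fell the same pair led in 5 of 13, and among class II pathway genes in 2 of 8. It led in 1 of 4 interferon regulators and in 0 of 5 T cell markers that fell. The 1 interferon regulator was Irf9, a subunit of the interferon-stimulated transcription factor. Irf9 had 9.34 and 9.33 on these arrays and 8.63 to 8.79 on the other 4 supplemented arrays. The mean of 9 B cell markers, described below, was also highest on replicates 3 and 6, at 6.40 and 6.46. It was 6.12 to 6.29 on the other 4 supplemented arrays. What sets the pair apart was not tested. Irf9 and the pair were singled out after their values were seen. RT1-S3 kept its call without either of the pair.

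The M loci come first in that order. Of 6 tested 1 rose and 5 did not pass, where 10.8% of all genes tested rose. The median of the 6 was 0.14, and 0.06 with centred arrays. RT1-M6-1 had 6.36, 6.03, 5.79, 6.24 and 6.37 on the deprived arrays, 5.94 to 6.40 (median 6.31) on the regular and 6.67 to 7.12 (median 6.90) on the supplemented arrays. All 6 supplemented arrays lay above all 11 others. It rose by 0.64 (SE 0.10, adjusted p = 6.7e-05), to 1.56 times the regular level, and by 0.58 to 0.68 when any 1 array was left out. Its neighbour RT1-M6-2 had 6.29 to 6.70 on the regular and 6.49 to 6.90 on the supplemented arrays and did not pass (0.19, 95% interval 0.02 to 0.37, adjusted p = 0.0786). The difference between the 2 genes was not tested. Over 298 aligned bases the promoters of these copies were 97.3% identical, and both are printed to show how alike they are; none of the letters searched for were found in either.
RT1-M6-1, chr20:1571221-1571470, plus strand: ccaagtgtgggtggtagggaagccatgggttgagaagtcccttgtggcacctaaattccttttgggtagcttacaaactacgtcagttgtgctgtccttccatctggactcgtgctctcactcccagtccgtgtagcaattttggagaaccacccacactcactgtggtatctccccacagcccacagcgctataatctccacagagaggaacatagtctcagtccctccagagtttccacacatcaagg
RT1-M6-2, chr20:1588283-1588532, plus strand: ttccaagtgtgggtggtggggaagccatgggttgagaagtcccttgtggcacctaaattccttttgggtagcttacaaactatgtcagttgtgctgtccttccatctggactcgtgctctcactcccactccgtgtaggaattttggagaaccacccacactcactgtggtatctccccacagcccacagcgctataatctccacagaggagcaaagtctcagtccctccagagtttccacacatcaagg

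RT1-M3-1, the counterpart of mouse H2-M3, which presents formylated peptides, was at 8.28 to 8.46 on the regular and 8.10 to 8.53 on the supplemented arrays. Its difference was -0.05 (95% interval -0.18 to 0.09, adjusted p = 0.576). RT1-M1-2 was at 0.22 (-0.03 to 0.47), RT1-M2 at 0.09 (-0.02 to 0.20) and RT1-M5 at -0.05 (-0.20 to 0.10), and none of these passed. In a fit without the level filter RT1-M1-4 passed (0.18, adjusted p = 0.0418) and RT1-M10-1 did not (-0.03, adjusted p = 0.787).

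Classical class I was seen only through the row shared by RT1-A1, RT1-A2 and RT1-A3, which is no member of the set. It stood at 8.17 ± 0.081 on the deprived (SD, n = 5), 8.06 ± 0.093 on the regular (n = 6) and 7.91 ± 0.069 on the supplemented arrays (n = 6). Tested among all rows, the difference of the supplemented from the regular diet was -0.15 (SE 0.056, adjusted p = 0.0644), which did not pass. Against the deprived diet the row was lower, at -0.25 (SE 0.058, adjusted p = 0.00283), and deprived minus regular was 0.11 (adjusted p = 0.423).

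The class II genes that changed, RT1-Bb, RT1-DOa and RT1-Ha, rose. RT1-Bb, the beta chain of the RT1-B molecule, counterpart of human DQ, had 6.49, 6.77, 6.86, 7.00 and 6.70 on the deprived arrays, 6.62 to 7.09 (median 6.87) on the regular and 6.90 to 7.32 (median 7.14) on the supplemented arrays. The arrays overlapped, and the mean rose by 0.28 (SE 0.091, adjusted p = 0.0229). RT1-DOa, the alpha chain of DO, which restrains peptide exchange by DM, had 6.62, 6.54, 6.69, 6.77 and 6.68 on the deprived, 6.76 to 7.03 (median 6.88) on the regular and 6.99 to 7.19 (median 7.06) on the supplemented arrays. The highest regular array lay above the lowest supplemented one, and the rise was 0.20 (SE 0.062, adjusted p = 0.0151). RT1-Ha, a locus related to human DP, had 5.23, 5.29, 5.20, 5.24 and 5.21 on the deprived, 4.94 to 5.40 (median 5.21) on the regular and 5.39 to 5.72 (median 5.48) on the supplemented arrays. Its mean over all arrays, 5.327, passed the level filter of 5.321 only through the supplemented arrays, whose mean was 5.51. The deprived and regular means, 5.23 and 5.22, lay below the filter. That RT1-Ha was tested thus rests on the arrays where it is high. The highest regular array lay above the lowest supplemented one, and RT1-Ha rose by 0.29 (SE 0.072, adjusted p = 0.00373). Without the filter it passed in limma as well (adjusted p = 0.00465).

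The other class II genes did not pass. RT1-Da, the alpha chain of RT1-D and counterpart of human DR, had the widest scatter, 7.07 to 8.51 on the regular arrays against 7.55 to 8.18 on the supplemented and 7.16 to 7.75 on the deprived arrays. Its difference was 0.19 with a 95% interval of -0.19 to 0.57. RT1-Ba, the partner chain of RT1-Bb, was at 0.14 (-0.07 to 0.36), and passed without regular replicate 2 (0.25, adjusted p = 0.0217), its highest array; over the fits that each left out an array the adjusted p ran up to 0.537. The chains of DM, which loads peptides, were at 0.04 (RT1-DMa, -0.08 to 0.16) and 0.10 (RT1-DMb, -0.06 to 0.26), and RT1-DOb was at 0.09 (-0.04 to 0.22). RT1-Db1 was below the filter at 5.03 to 5.53 on the regular and 5.14 to 5.66 on the supplemented arrays, and did not pass without that filter (0.04, adjusted p = 0.738). The call of RT1-Bb was lost after centring (0.20) and cyclic loess (0.25), without supplemented replicates 2 and 5 together (0.27), and without regular replicate 1 (0.25), regular replicate 3 (0.23), supplemented replicate 2 (0.26) or supplemented replicate 4 (0.24). That of RT1-DOa was lost after centring (0.13), with array weights (0.17) and without supplemented replicates 2 and 5 (0.16), and that of RT1-Ha after cyclic loess (0.18).

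The letters that mark class II promoters were counted in the 8 class II promoters at hand. The Y box, CCAAT, was in 8 of 8 against 15 of 23 class Ib promoters and 37.5% of all promoters. The X box core, GCAACNG, was in 5 of 8, in 2 of 23 of class Ib and in 12.2% of all. In RT1-Ba, RT1-Da, RT1-Db1, RT1-DOb and RT1-Ha the X core was followed by a Y box in the reverse orientation after 23 to 26 bases, a pair found in 0.0956% of all promoters (32 promoters, these 5 included); this spacing was chosen after the sites were seen. The X2 box, TGACGNNA, was next to the X core in RT1-Ba, where its letters read the same on both strands, and was also in RT1-N3 and in 7.11% of all promoters. Of the 5 genes with the pair RT1-Ha rose, RT1-Ba, RT1-Da and RT1-DOb did not pass and RT1-Db1 was not tested, while RT1-Bb and RT1-DOa rose and held the Y box without the X core. RT1-Ba, RT1-Da and RT1-Ha are printed to show the shared layout, with X core, X2 box and Y box in capitals.
RT1-Ba, chr20:4576807-4577056, plus strand: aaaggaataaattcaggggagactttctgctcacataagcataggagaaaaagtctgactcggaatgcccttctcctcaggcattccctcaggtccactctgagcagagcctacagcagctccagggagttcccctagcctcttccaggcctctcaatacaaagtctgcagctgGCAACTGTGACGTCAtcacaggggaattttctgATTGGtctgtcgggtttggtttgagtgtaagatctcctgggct
RT1-Da, chr20:4515165-4515414, plus strand: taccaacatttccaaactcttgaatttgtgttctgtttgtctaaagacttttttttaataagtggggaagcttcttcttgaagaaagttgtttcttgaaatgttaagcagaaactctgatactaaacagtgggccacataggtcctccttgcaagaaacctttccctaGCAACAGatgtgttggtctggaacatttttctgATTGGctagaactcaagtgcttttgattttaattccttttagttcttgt
RT1-Ha, chr20:4772142-4772391, minus strand: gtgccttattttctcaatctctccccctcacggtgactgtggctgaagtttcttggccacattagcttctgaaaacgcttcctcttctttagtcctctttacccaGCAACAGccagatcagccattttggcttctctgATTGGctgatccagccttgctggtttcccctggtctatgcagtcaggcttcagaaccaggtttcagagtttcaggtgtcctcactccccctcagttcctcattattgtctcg

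Between the deprived and the regular diet no RT1 gene passed. In limma 0 of 32 changed against the regular diet, where 1.67% of all genes tested did (1.49% higher and 0.184% lower), and 6 RT1 genes had an unadjusted p under 0.05. RT1-M1-2 had 4.81, 5.43, 5.20, 5.51 and 5.51 on the deprived and 5.40 to 6.00 (median 5.72) on the regular arrays, a difference of -0.43 (95% interval -0.70 to -0.17, adjusted p = 0.0861). RT1-DOa was at -0.22 (-0.36 to -0.09, adjusted p = 0.0851). RT1-O1 (0.25, 0.04 to 0.46), RT1-T24-1 (0.22, 0.05 to 0.39), RT1-T18 (0.20, 0.03 to 0.37) and RT1-N2 (-0.19, -0.37 to -0.01) were the others. RT1-S3 was at 0.03 (-0.27 to 0.34) and RT1-M6-1 at -0.10 (-0.32 to 0.12).

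The supplemented and deprived diets, the ends of the range, differed in 16 of 32 RT1 genes, 5 higher and 11 lower, where 47.2% of all genes tested changed, 18.6% higher and 28.6% lower. This comparison shares the supplemented arrays with the first and the deprived arrays with the second, so its values are given beside theirs and not as separate evidence. RT1-T24-1 was lower, at -0.59 (SE 0.082, adjusted p = 7.09e-06), beside -0.38 against the regular diet and 0.22 for deprived minus regular. RT1-O1 had 5.62, 5.91, 5.61, 5.41 and 5.30 on the deprived and 4.99 to 5.28 (median 5.15) on the supplemented arrays, which did not overlap. Its difference was -0.43 (SE 0.10, adjusted p = 0.00186), with the regular arrays between at 5.02 to 5.55. RT1-O1, at a mean of 5.329 over all arrays, passed the level filter of 5.321 only through the deprived arrays (mean 5.57). Its regular and supplemented means, 5.317 and 5.14, lay below the filter. Without the filter its adjusted p in limma was 0.00218. RT1-S3 (-0.78), RT1-CE5 (-0.52), RT1-CE10 (-0.52), RT1-N3 (-0.49), RT1-CE16 (-0.41) and RT1-CE7 (-0.40) were lower with no overlap between the 2 diets, and RT1-T24-4 (-0.33), RT1-CE3 (-0.31) and RT1-CE13 (-0.28) with overlap. How many of all genes tested lacked overlap was not counted, so its lack is no mark of the RT1 genes.

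On the higher side, RT1-M6-1 was at 0.74 (SE 0.11, adjusted p = 1.21e-05). RT1-M1-2 had 5.64 to 6.18 (median 6.03) on the supplemented arrays, all above the deprived ones, and was higher by 0.65 (SE 0.13, adjusted p = 0.000324). RT1-DOa was higher by 0.42 (SE 0.065, adjusted p = 2.36e-05) and RT1-Ha by 0.28 (SE 0.075, adjusted p = 0.00496), both without overlap, and RT1-Bb by 0.36 (SE 0.095, adjusted p = 0.00394). RT1-Ha passed the level filter only through its supplemented arrays. For RT1-DOa the means of the diets followed the dose, 6.66, 6.88 and 7.08 for 0, 2 and 10 IU, of which only the steps that end at 10 IU passed. Such an order was not particular to RT1-DOa. Among others, RT1-Bb (6.77, 6.85 and 7.13) and RT1-M1-2 (5.29, 5.73 and 5.95) rose with the dose. RT1-T24-1 (8.58, 8.36 and 7.98) fell with it, and RT1-Ha (5.23, 5.22 and 5.51) did not follow it. Class II had a median difference of 0.27, with 8 of 8 positive, and the CE loci one of -0.29, with 9 of 10 negative. After quantile normalization 7 of 8 class II differences were positive and 7 of 10 CE differences negative, with a CE median of -0.18. With centred arrays 6 of 8 were positive and 10 of 10 negative, with a class II median of 0.16. The median of all genes tested was 0.0011. The F test over the 3 diets called 16 RT1 genes, where it called 45.3% of all genes tested. RT1-Ha lost its call in this comparison after quantile normalization (0.16), cyclic loess (0.14) and centring (0.17), and RT1-CE13 and RT1-T24-4 after quantile normalization (-0.03 and -0.11) and cyclic loess (-0.05 and -0.11). RT1-CE13 also lost it with the macrophage and monocyte marker mean as a covariate (-0.27) and when supplemented replicates 2 and 5 were left out (-0.20), and RT1-Bb with the B cell (0.25) or macrophage marker mean (0.30) as a covariate.

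Of 19 class I pathway genes tested 1 rose, 13 fell and 5 did not pass against the regular diet, with a median of -0.28. Over all genes tested 22.9% fell, and 52.6% did in the highest of 4 bands of level, from 8.344 up; the mean of the 19 genes was 9.031 to 9.666 on all arrays. After quantile normalization 1 rose and 9 fell (median -0.14), and after cyclic loess 2 rose and 8 fell (median -0.14). The chaperone Calr, which holds class I during peptide loading, fell by 0.77 (SE 0.10, adjusted p = 1.06e-05), and its partner Pdia3 by 0.47. The immunoproteasome subunit Psmb9, which helps to cut the peptides, fell by 0.67 and Psmb8 by 0.28. The proteasome activator subunit Psme1 fell by 0.45 and Tapbp (tapasin), which ties class I to the peptide transporter, by 0.31. The transporter subunits Tap1 (-0.24, adjusted p = 0.087) and Tap2 (-0.04, adjusted p = 0.774) did not pass. Neither did B2m, the light chain of class I (-0.07, adjusted p = 0.272), although it was lower than on the deprived diet (-0.17, adjusted p = 0.0096). With the array spread as a covariate 0 of the 19 passed (4 at an unadjusted p under 0.05) and the median was 0.0051. Nlrc5 had no row of its own symbol alone.

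Of 16 class II pathway genes tested 1 rose, 8 fell and 7 did not pass, where 10.8% of all genes rose and 22.9% fell. After quantile normalization 2 rose and 3 fell, and after cyclic loess 2 rose and 2 fell. Ciita, the transactivator of class II genes, rose by 0.27 (adjusted p = 0.000436), from 5.73 to 5.99 on the regular to 6.06 to 6.17 on the supplemented arrays. Its regular values lay within the lowest band of level (5.321 to 6.15), where 18.1% of all genes rose and the median difference was 0.11. Cd74, the invariant chain that travels with class II, did not pass (-0.09, 95% interval -0.55 to 0.37). The protease Sppl2a, which cuts the last piece of Cd74, fell by 0.39, and cathepsin S (Ctss), which trims it before, by 0.25. Nfyb, a subunit of the factor that binds the Y box, fell by 0.32. The count was 5 without regular replicate 1. Of 10 interferon regulators 0 rose, 4 fell (22.9% over all genes) and 6 did not pass, with Jak1 at -0.31, Jak2 at -0.38, Ifngr1 at -0.32 and Irf9 at -0.43 as those that fell and Irf1 (-0.09) and Ifng (-0.09) among those that did not pass. Quantile normalization and cyclic loess each left 2 of the 10 lower, and with the spread covariate 0 fell and the median was 0.03, against -0.10. Against the regular diet, deprivation changed 0 of 19 class I and 0 of 16 class II pathway genes in limma (3 and 4 at an unadjusted p under 0.05).

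Markers of other antigen-presenting cells were followed beside class II. Of 9 B cell markers tested 6 rose from the regular to the supplemented diet, 0 fell and 3 did not pass, where 10.8% of all genes rose, and 18.1% and 15.2% in the lower 2 bands of level. The count was 3 higher after quantile normalization, 2 higher and 1 lower with centred arrays, 2 higher after cyclic loess and 0 with the spread covariate. Cr2, a complement receptor, rose by 0.66 and Fcrla by 0.40, while Cd79b, of the B cell receptor, did not pass (0.20, adjusted p = 0.0584) and neither did Cd22 (-0.49). Cd79a, Pax5 and Bank1 had no row of their own symbol alone, and Ms4a1 lay below the level filter with a mean of 5.12. The mean of the 9 was 6.014 to 6.18 on the deprived, 5.906 to 6.258 on the regular and 6.115 to 6.463 on the supplemented arrays. Macrophage and monocyte markers had 5 of 13 higher, 0 lower and 8 that did not pass, with means of 6.07 to 6.277, 6.004 to 6.199 and 6.225 to 6.381 in the same order; Csf1r (0.03) and Cd68 (0.20) did not pass. Of these 13, 1 rose after quantile normalization, 2 with centred arrays, 1 after cyclic loess and 0 with the spread covariate. Of 8 dendritic cell markers limma called 0 against the regular diet (0 at an unadjusted p under 0.05), and 1, Flt3, was higher than on the deprived diet (0.25, adjusted p = 0.00878). With the B cell marker mean as a covariate RT1-Ha was still called, while RT1-Bb was at 0.16 (adjusted p = 0.308) and RT1-DOa at 0.20 (adjusted p = 0.0725). RT1-Ba and RT1-Da, which had not passed, turned to -0.04 and -0.40 in that fit. With the macrophage marker mean RT1-Bb and RT1-DOa were at 0.19 (adjusted p = 0.328) and 0.14 (adjusted p = 0.294). Over all alternatives, fits without 1 array included, the adjusted p of RT1-Bb ran from 0.011 to 1 and that of RT1-DOa from 0.00785 to 0.894. The part of these cells in the class II rise was not tested beyond these values. T cell markers had 0 of 10 higher and 5 lower, with Cd4 (-0.59) and Cd3e (-0.29) among them. Over all genes tested 22.9% fell. In the highest band of level, where the mean of these markers lay (10.09 to 10.6), 52.6% fell. After quantile normalization or cyclic loess 1 T cell marker was higher and 4 were lower, and the median moved from -0.23 to -0.06.

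Within a diet, RT1-Da varied with the B cell markers. Deviations from the diet mean were correlated over the 17 arrays for the 32 RT1 genes and 3 marker lists, 96 relations in all. RT1-Da and the B cell marker mean had r = 0.79 (permutation within diets, 100000 resamples, two-sided, p = 0.0005, adjusted p = 0.048) and rho = 0.855 (permutation p = 7e-05, adjusted p = 0.00672). Regular replicate 2 and supplemented replicate 6 were the arrays farthest from the median of the marker mean. Without them r was 0.744 (permutation p = 0.00375, adjusted p = 0.36) and rho 0.825 (permutation p = 0.00111, adjusted p = 0.0533). Both stayed high on the fewer arrays, but neither passed, so the adjusted call rests on having these 2 arrays. For the class II genes that rose, r with the B cell markers was 0.365 for RT1-Bb, 0.0123 for RT1-DOa and 0.11 for RT1-Ha, and none of these passed. Positive r with the B cell markers was not particular to class II. It was positive in 19 of 24 class Ib genes (median 0.318) and 7 of 8 class II genes (median 0.168). The highest r of class Ib was that of RT1-S3 (0.741, permutation p = 0.00223, adjusted p = 0.107). No other of the 96 relations passed.

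**Figure D3:**
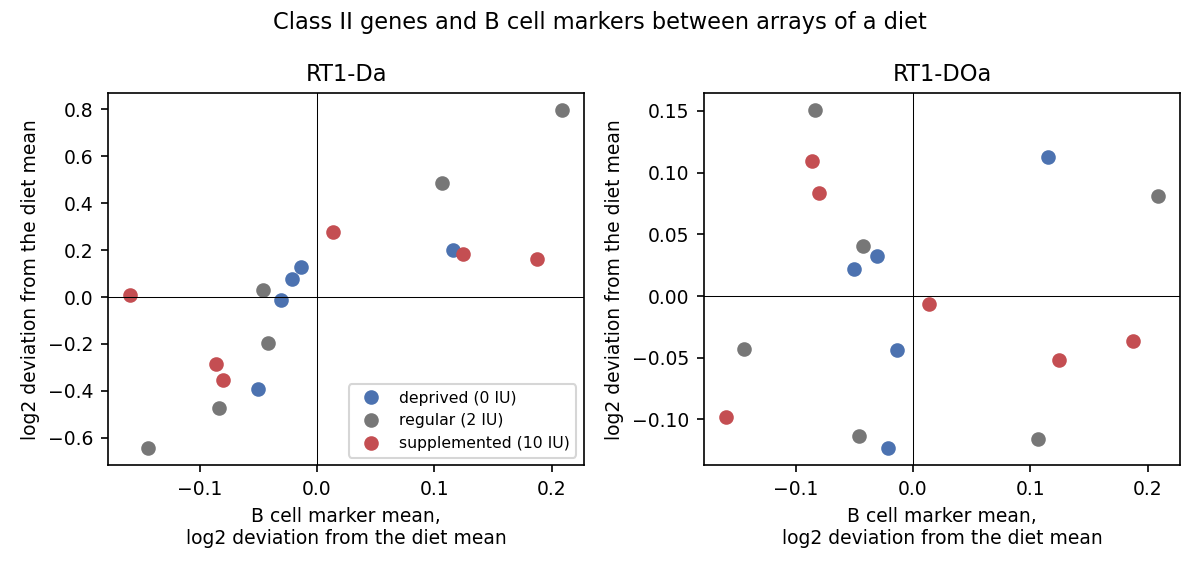
Deviation of RT1-Da (left) and RT1-DOa (right) from their diet mean in log2 units, against the deviation of the mean of 9 B cell markers, on each of 17 arrays coloured by diet. The points of RT1-Da rise from the lower left to the upper right (r = 0.79), and those of RT1-DOa do not (r = 0.0123).

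The direction of the RT1 genes went with their level, as it did over all genes. All genes were divided by mean value into 4 equal bands. In the lowest band (5.321 to 6.15) 18.1% rose and 2.32% fell against the regular diet, and of 8 RT1 genes 2 rose and 0 fell. In the next (6.15 to 7.068) 15.2% rose and 7.98% fell, and of 8 RT1 genes 3 rose and 0 fell. In the third (7.068 to 8.344) 5.81% rose and 28.6% fell, and of 8 RT1 genes 0 rose and 4 fell. In the highest (8.344 to 13.15) 4.01% rose and 52.6% fell, and of 8 RT1 genes 0 rose and 6 fell. The median difference of all genes ran from 0.11 in the lowest to -0.21 in the highest band. The 8 class II genes were in the lower 3 bands (2, 4 and 2 genes). RT1-M6-1, in the second lowest band, rose by 0.64 where the median was 0.061, and RT1-S3, in the highest, fell by 0.75.

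**Figure D4:**
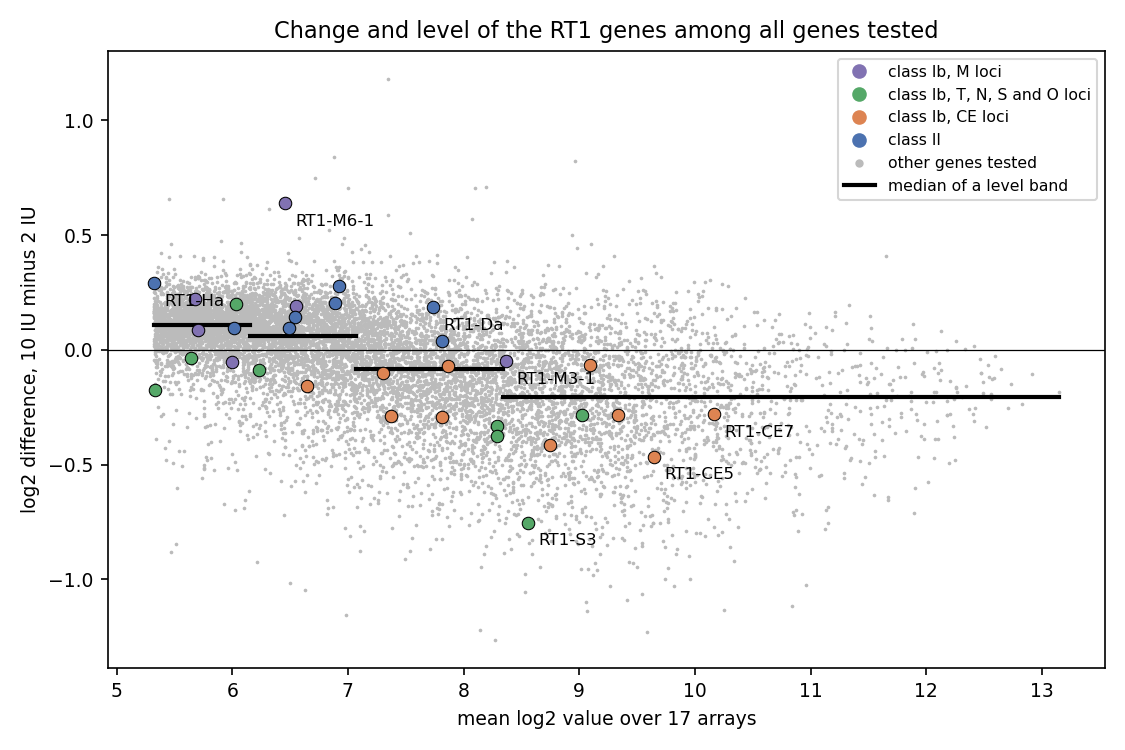
Difference in log2 value between the supplemented and regular diets against the mean log2 value over 17 arrays, for the RT1 genes (coloured by group) and the other genes tested (grey), with the median of each of 4 equal bands of level as a black line. The medians step from 0.11 to -0.21, with RT1-M6-1 far above and RT1-S3 far below the line of their band.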

How the data were processed

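Each of the 17 samples was 1 Affymetrix array of 1 CD4+ T cell sample. The deposited values were log2 expression values; the authors made them with RMA in Partek 6.0, per the submitters' processing notes, and the log base was read from their range. The table had 29214 rows, of which 15310 named 1 gene symbol, 323 several and 13581 were not listed in the platform annotation. Each of 14506 genes was represented by its row with the highest mean, and the lowest 25% were left out. All 3 diets entered a single fit with limma 3.58.1 (R 4.3.3), checked on simulated data, and p-values were adjusted over 10879 genes. These p-values weigh a difference between diets against the spread of arrays within a diet, and the number of arrays limits the precision. Correlations between pairs of arrays were 0.9773 to 0.9954.

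The members and gene lists were chosen with earlier results of these data known. All RT1 genes above the filter could be named, with up to 6 members of each pathway list and up to 4 of each marker list by smallest p, and Ciita, Cd74, B2m, Tap1, Tap2, Tapbp, Psmb8, Psmb9, Nlrc5, Irf1, Cd4, Cd3e, Cd79a, Cd79b, Ms4a1, Cd8a, Csf1r and Cd68; some genes of this rule are not reported here. Sequences came from RefSeq promoters (GRCr8), matched by Entrez gene identifier for 31 of 35 genes. Alternatives changed the normalization, filter, row choice, variance model, threshold, covariates and samples.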

Additional observations from a re-analysis of the deposited data

Results flagged for a closer look

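Among 96 groups, the 32 tested RT1 genes in each of 3 diets, 10 held an array set apart from the rest of its diet, by a gap of more than 0.625 of the group's range with 6 arrays or 0.71 with 5. Chance sets apart about 1 in 20 groups. On the regular diet, replicate 2 was the highest for the neighbouring genes RT1-T24-1 (8.62 against 8.28 to 8.36, gap 0.764 of the range) and RT1-T24-4 (9.33 against 9.03 to 9.10, gap 0.766). Regular replicate 6 was the highest for RT1-CE11 (7.55 against 7.32 to 7.37, gap 0.821), and regular replicate 4 the lowest for RT1-CE4 (9.01 against 9.08 to 9.12, gap 0.629).

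On the supplemented diet, replicate 5 was the lowest for RT1-CE5 (8.94 against 9.30 to 9.50, gap 0.635) and the highest for RT1-DMb (6.39 against 5.98 to 6.06, gap 0.798). Supplemented replicate 6 was the lowest for RT1-T18 (5.83 against 6.10 to 6.22, gap 0.693). On the deprived diet, replicate 2 was the highest for RT1-DOb (6.55 against 6.42 to 6.46, gap 0.726), replicate 3 the highest for RT1-M5 (6.09 against 5.96 to 6.00, gap 0.715) and replicate 6 the lowest for RT1-S2 (5.32 against 5.65 to 5.74, gap 0.800).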

How the results depend on the processing

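Of the 31 gene calls of the 2 comparisons with the supplemented diet, 31 were kept with trend and robust eBayes, with the replicate block and at a threshold of 0.1, 23 after quantile normalization, 21 after cyclic loess, 27 with centred arrays and 23 without supplemented replicates 2 and 5. None was kept with the array spread as a covariate, which also turned RT1-DOa against the regular diet to -0.048 and RT1-M1-2 against the deprived diet to -0.20. That fit gave 0 called genes for RT1 in supplemented minus regular (15), supplemented minus deprived (16) and the F test (16), for the class I pathway in the same 2 comparisons (14 and 14) and for the class II pathway (9 and 11), and 1 for the class I pathway in deprived minus regular (0); the cause was not tested, and spread and diet cannot be told apart. Supplemented minus regular gave 9 RT1 genes after cyclic loess and 8 without supplemented replicates 2 and 5. The class II pathway gave 5 after quantile normalization, 4 after cyclic loess, 5 with array weights, 4 with the macrophage covariate and 4 without those 2 arrays. Supplemented minus deprived gave 9 class I pathway genes after quantile normalization and 7 class II pathway genes with the macrophage covariate. Deprived minus regular gave, for RT1, 3 with array weights, 1 with the replicate block and 2 at a threshold of 0.1; for the class I pathway, 1 with 50% of genes left out, 2 with array weights, 2 with only 2 diets, 1 without those 2 arrays and 2 at 0.1; and for the class II pathway 1 with array weights. Leaving out 1 array gave 13 to 15 RT1 genes in supplemented minus regular, 0 to 0 in deprived minus regular, 16 to 17 in supplemented minus deprived and 16 to 17 in the F test; 13 to 15, 0 to 2 and 13 to 14 class I pathway genes; and 5 to 9, 0 to 0 and 10 to 12 class II pathway genes. The 1 marker correlation became 0 without its 2 arrays. Centring moved the median of all genes to -0.08 against the regular and -0.10 against the deprived diet, so changes under it are relative to that shift. The replicate numbers did not pair the arrays: 4 of 16 same-numbered pairs correlated above 0.1 (-0.207 to 0.195), and the replicate block gave 15, 1, 17 and 18 RT1 genes for the same comparisons and the F test. Genes near the level filter (RT1-Ha, RT1-O1, RT1-M1-2) and loci with near-identical copies are the least certain values.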
